A study of Mus musculus with 12 samples.

Results

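The transcripts of 9 microglia and complement genes were followed in the mouse frontal cortex: the microglial receptors and surface proteins Csf1r, Cx3cr1, P2ry12, Tmem119 and Trem2, the gene Aif1 of the cytoplasmic protein Iba1, and C1qa, C1qb and C1qc, which encode the chains of complement component C1q. The genes were taken by name from the gene column of the authors' deposited tables. Every table held a tested model for each of the 9, which for Aif1 was in 2 tables a model shared with its neighbour Lst1, out of 23076 gene symbols in all. The cortex came from 12 male mice, C57Bl/6 and 129/SvlmJ F1 hybrids aged 14 weeks. The 4 animals labelled GluN1Cre are the Grin1 Cre rescue (called rescue), the 4 labelled GluN1 the Grin1 knockdown (called knockdown), and the 4 labelled WT are wild type. All animals, wild type included, were given tamoxifen for 2 weeks beginning at the age of 10 weeks (about 14 mg through the chow, besides 6 mg by oral gavage). The promoter that drives Cre is not given in the sources used here, and by the group names no animal carried Cre without the knockdown. Each deposited table compares a pair of groups and gives 1 FPKM value per group (fragments per kilobase of transcript, scaled to library size), which the authors estimated over the group's libraries. Values per animal were not analysed here, so the spread between animals and the read depth are unknown.

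Microglia are the resident macrophages of the brain. They depend on signalling through the Csf1r receptor, sense neuronal fractalkine through Cx3cr1 and released nucleotides through P2ry12, and bind lipids and debris through Trem2, which signals with the adaptor Tyrobp. C1q, which in the brain is made chiefly by microglia, starts the classical complement pathway and during development marks synapses that microglia then remove.

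In the Grin1 knockdown cortex the level of none of the 9 genes was called changed against wild type. The C1q chains stood slightly above wild type, with log2 folds of 0.12 for C1qa, 0.10 for C1qc and 0.07 for C1qb, and the receptors lay on both sides of it, between 0.06 for Csf1r and -0.04 for Cx3cr1. The rescue differed from the knockdown and from wild type in none of the 9 genes either. A gene was called at p under 0.05 and q under 0.10, the threshold in the series' design text, where q is the authors' p adjusted over all tested models. By this rule of the authors' Cuffdiff test, 0 of the 9 models were called in each comparison, while 2.52% of 18417 tested models were called in knockdown over wild type, 0.689% of 18430 in rescue over knockdown and 0.841% of 18429 in rescue over wild type. At an unadjusted p under 0.05 the count was also 0 of 9 in each, beside 7.91%, 4.19% and 4.32% of all tested models. The lowest p of the 9 in the authors' deposited tables was 0.157 (the model of Aif1 and Lst1), 0.138 (Cx3cr1) and 0.321 (Cx3cr1) in that order.

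The median log2 fold of the 9 genes was 0.06 in knockdown over wild type, -0.03 in rescue over knockdown and 0.01 in rescue over wild type. Over all tested models the medians were -0.00, -0.01 and -0.01. In that order 8, 9 and 8 of the 9 genes had a log2 fold between -0.15 and 0.15, and so did 69.3%, 76.1% and 74.8% of all tested models. Among tested models averaging at least 1 FPKM, a level that all 9 genes reached, the shares were 79.3%, 86.7% and 85.1%. Small folds were thus common among all models as well. The exception in both comparisons with wild type was Aif1, whose gene model changed between tables, as described under that gene.

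The group labels were checked with Grin1, which encodes the subunit that NMDA-type glutamate receptors need. Grin1 stood at 56.7 FPKM in the knockdown and 138 FPKM in wild type, a share of 41.0% (q = 0.00456 in the authors' deposited table). It stood at 86.7 FPKM in the rescue and 65.7 FPKM in the knockdown (q = 0.038 in the authors' deposited table), and at 78.0 FPKM in the rescue and 138 FPKM in wild type (q = 0.0098 in the authors' deposited table). Its direction followed the labels in every table. Between tables the knockdown value of Grin1 moved by 0.21 and the rescue value by 0.15 on the log2 scale. Its log2 fold in rescue over knockdown was 0.40. Fewer microglia and less RNA per cell cannot be told apart in these bulk samples.

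**Figure D1:**
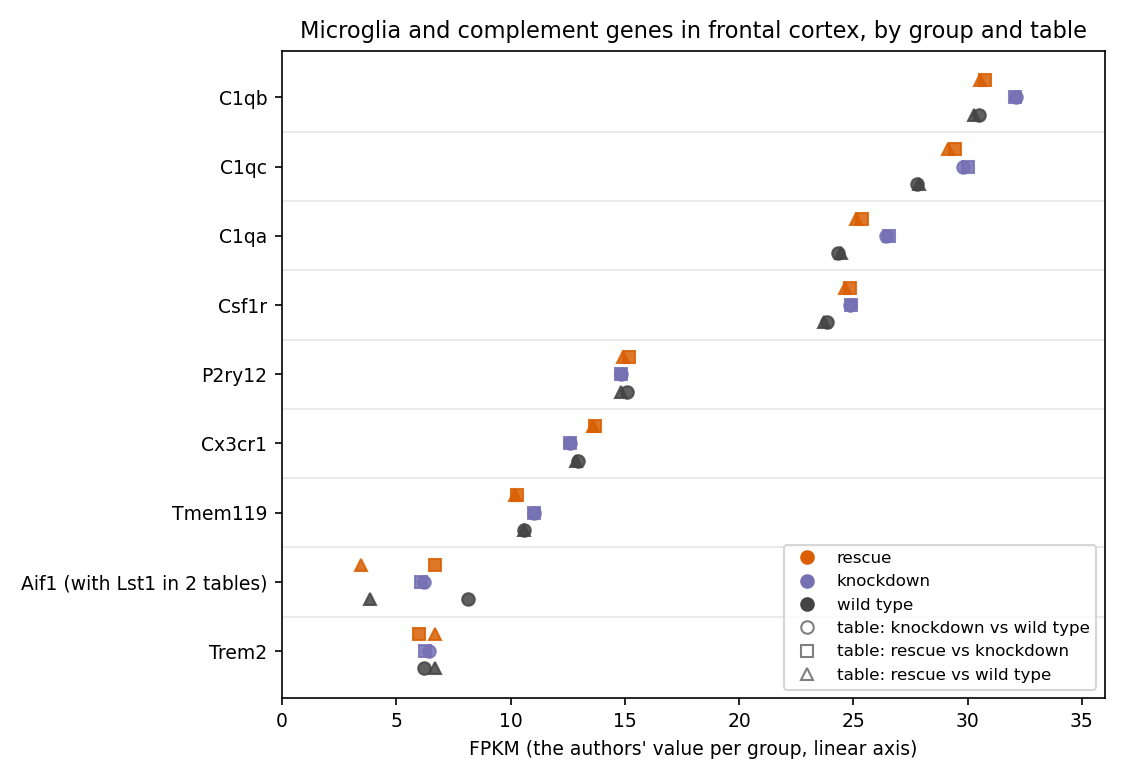
FPKM of each of the 9 genes (x axis, linear) in rescue, knockdown and wild type, with the marker shape giving the deposited table; points are the authors' group values, so there are no error bars. C1qb is highest at 30.3 to 32.1 FPKM, and the groups lie close together for the genes other than Aif1, whose points differ between groups (6.21 FPKM in the knockdown and 8.14 FPKM in wild type in 1 table) and between tables, where the model held Lst1 in 2 of the 3.

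The C1q genes are neighbours on chromosome 4 (minus strand; GENCODE M21 annotation, build GRCm38). C1qb (ENSMUSG00000036905) runs from 136880129 to 136886187, C1qc (ENSMUSG00000036896) from 136889804 to 136893065 and C1qa (ENSMUSG00000036887) from 136895917 to 136898803. The gaps between neighbours are 3616 and 2851 bases, and the authors' assembly kept the genes as separate models in every table. Of the others, Trem2 (ENSMUSG00000023992) lies on the plus strand of chromosome 17 from 48346401 to 48354147, Aif1 (ENSMUSG00000024397) on the minus strand of chromosome 17 from 35170991 to 35176068, Tmem119 (ENSMUSG00000054675) on chromosome 5 from 113793729 to 113800516 and Cx3cr1 (ENSMUSG00000052336) on chromosome 9 from 119901616 to 120069879. P2ry12 (ENSMUSG00000036353) lies on the minus strand of chromosome 3 from 59216272 to 59262871, inside the span of the plus-strand gene Med12l. All are protein-coding genes.

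RefSeq promoter windows were found for 6 of the 9 genes. The 250 bases before the start are shown for the 3 whose window held at most 30 bases of an annotated exon, to set a C1q chain beside a receptor and the gene whose model varied most. They run 5′ to 3′ on the gene's strand in RefSeq's build GRCm38.p6, and capitals mark GAGGAA or its reverse complement TTCCTC, letters found in sites of ETS factors such as the myeloid factor PU.1.
C1qb, chr4:136886201-136886450, minus strand: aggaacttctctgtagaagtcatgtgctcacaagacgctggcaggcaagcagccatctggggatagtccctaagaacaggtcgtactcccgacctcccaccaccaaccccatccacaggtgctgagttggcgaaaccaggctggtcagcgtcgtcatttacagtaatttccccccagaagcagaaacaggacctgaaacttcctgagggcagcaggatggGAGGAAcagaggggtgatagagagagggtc
Trem2, chr17:48346151-48346400, plus strand: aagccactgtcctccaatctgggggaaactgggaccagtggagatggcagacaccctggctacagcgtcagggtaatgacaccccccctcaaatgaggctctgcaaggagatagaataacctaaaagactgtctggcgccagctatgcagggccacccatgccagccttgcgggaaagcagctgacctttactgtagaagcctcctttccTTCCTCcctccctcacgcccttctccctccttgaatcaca
Aif1, chr17:35176053-35176302, minus strand: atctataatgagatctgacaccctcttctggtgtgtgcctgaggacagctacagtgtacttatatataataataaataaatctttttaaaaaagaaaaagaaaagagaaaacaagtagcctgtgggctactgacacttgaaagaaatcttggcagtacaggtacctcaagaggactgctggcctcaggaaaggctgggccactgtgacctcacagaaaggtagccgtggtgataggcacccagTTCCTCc
The letters occur once in each window, beginning 30 bases before the start in C1qb, 40 in Trem2 and 7 in Aif1. On either strand they were in 4 of the 6 members' windows, C1qc being the other, and in 23.3% of the 32851 windows of this length in the table. The windows of Cx3cr1 and P2ry12 were annotated exon over all 250 bases, and that of C1qc over 151. In Aif1 16 bases of the window were annotated exon. The gene's annotated end at 35176068 is inside that window, so the match there lies within the annotated gene. A match describes the letters and shows no binding.

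The chains of C1q join in equal numbers in the protein, and their transcripts were present at like levels per length. C1qb stood at 32.1 FPKM in the knockdown against 30.5 FPKM in wild type, at 30.8 FPKM in the rescue against 32.1 FPKM in the knockdown, and at 30.5 FPKM in the rescue against 30.3 FPKM in wild type. C1qc stood at 29.8 against 27.8 FPKM, 29.4 against 30.01 FPKM and 29.2 against 27.9 FPKM in the same 3 pairs of groups. C1qa stood at 26.4 against 24.3 FPKM, 25.4 against 26.6 FPKM and 25.1 against 24.4 FPKM in the same 3 pairs. Each chain was thus highest in the knockdown and lowest in wild type, by differences that did not pass the test; the 3 genes were measured in the same libraries. In the authors' deposited tables p was 0.218 for C1qa, 0.428 for C1qb and 0.282 for C1qc in knockdown over wild type, between 0.482 and 0.761 in rescue over knockdown, and between 0.511 and 0.898 in rescue over wild type. The ratio of the levels of C1qb and C1qa ranged from 1.21 to 1.25 over the 6 group values, that of C1qc and C1qa from 1.13 to 1.16 and that of C1qb and C1qc from 1.05 to 1.10. The sum of the chains was 88.3 FPKM in the knockdown and 82.6 FPKM in wild type, 85.6 FPKM in the rescue and 88.6 FPKM in the knockdown, and 84.8 FPKM in the rescue and 82.6 FPKM in wild type.

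Csf1r (ENSMUSG00000024621, chromosome 18 from 61100598 to 61132149, plus strand), the growth factor receptor on which microglia depend, was the most abundant of the receptor genes per length. It stood at 24.8 FPKM in the knockdown and 23.8 FPKM in wild type, at 24.9 FPKM in both rescue and knockdown, and at 24.6 FPKM in the rescue and 23.7 FPKM in wild type. Its log2 folds were 0.06, -0.00 and 0.05, and their intervals were the narrowest of the 9 genes in all 3 comparisons (standard errors 0.16, 0.16 and 0.16). The fold of 0.06 therefore carries an interval from -0.26 to 0.38 by the authors' test statistic.

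P2ry12, the purinergic receptor that guides microglial processes toward released nucleotides, stood at 14.8 FPKM in the knockdown and 15.1 FPKM in wild type, at 15.2 FPKM in the rescue and 14.8 FPKM in the knockdown, and at 14.9 FPKM in the rescue and 14.8 FPKM in wild type. Its largest log2 fold was 0.03, with standard errors of 0.31 to 0.32 in the 3 comparisons, wider than those of the other receptors above 10 FPKM. In each table its locus also held models of Med12l and P2ry13. P2ry13, a further nucleotide receptor of microglia, had log2 folds of 0.08, 0.04 and 0.12 in knockdown over wild type, rescue against knockdown and rescue against wild type, and none was called.

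Cx3cr1, the fractalkine receptor, stood at 12.6 FPKM in the knockdown and 12.96 FPKM in wild type, at 13.7 FPKM in the rescue and 12.6 FPKM in the knockdown, and at 13.6 FPKM in the rescue and 12.9 FPKM in wild type. The rescue value was the highest in both tables that held it. The log2 fold of 0.12 in rescue over knockdown had an interval from -0.20 to 0.45, with p = 0.138 in the authors' deposited table. Tmem119, a membrane protein used to tell microglia from other macrophages, had the opposite order: 11.01 FPKM in the knockdown and 10.6 FPKM in wild type, 10.3 FPKM in the rescue and 11.04 FPKM in the knockdown, and 10.2 FPKM in the rescue and 10.6 FPKM in wild type. Its log2 fold of -0.10 in rescue over knockdown had p = 0.305 in the authors' deposited table, so neither gene's difference passed the test.

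Trem2, the lipid-sensing receptor, was the least abundant of the receptors, at 6.43 FPKM in the knockdown and 6.22 FPKM in wild type, 5.99 FPKM in the rescue and 6.27 FPKM in the knockdown, and 6.71 FPKM in both rescue and wild type. The same rescue libraries gave 5.99 FPKM in one table and 6.71 FPKM in the other, a log2 difference of 0.16 that exceeds every Trem2 fold between groups (at most 0.06 in size). Its groups could therefore not be ordered across tables.

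Aif1, whose product Iba1 is the usual antibody target for microglia, was assembled together with the neighbouring gene Lst1 in 2 of the 3 tables. That joint model stood at 6.21 FPKM in the knockdown and 8.14 FPKM in wild type, and at 6.70 FPKM in the rescue and 6.09 FPKM in the knockdown. In the third table Aif1 stood alone, at 3.44 FPKM in the rescue and 3.86 FPKM in wild type, and Lst1, a leukocyte transcript, had its own model at 3.67 FPKM in the rescue and 4.68 FPKM in wild type. Only this table gives a value of Aif1 itself. The joint log2 fold of -0.39 in knockdown over wild type had the largest size among the 9 genes and an interval from -1.48 to 0.70 (p = 0.157 in the authors' deposited table). The fold of Aif1 alone in rescue over wild type was -0.17, with an interval from -0.90 to 0.56. The reads of this joint model cannot be assigned to either gene.

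Ordered by level, C1qb (30.3 to 32.1 FPKM) lay above C1qc (27.8 to 30.01 FPKM), C1qa (24.3 to 26.6 FPKM) and Csf1r (23.7 to 24.9 FPKM), then P2ry12 (14.8 to 15.2 FPKM), Cx3cr1 (12.6 to 13.7 FPKM), Tmem119 (10.2 to 11.04 FPKM) and Trem2 (5.99 to 6.71 FPKM), with Aif1 alone at 3.44 and 3.86 FPKM. C1qa and Csf1r overlapped over the 6 group values, while the other neighbours in this order did not, a spread over groups and tables and not over animals. For the 8 genes other than Aif1, the value of 1 group differed between its 2 tables by at most 0.01 to 0.16 on the log2 scale, depending on the gene. For Trem2 that difference was larger than any fold between groups, and for the other 7 it was smaller than the gene's largest fold. For P2ry12 the difference of 0.027 still exceeded the fold of 0.0075 in rescue over wild type. For Csf1r the difference of 0.014 exceeded the size of the fold of -0.0016 in rescue over knockdown. Adding the folds of knockdown against wild type and rescue against knockdown gave the fold of rescue against wild type within -0.02 to 0.01 for these 8 genes; the comparisons share animals, so this shows only that the tables agree in their arithmetic.

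**Figure D2:**
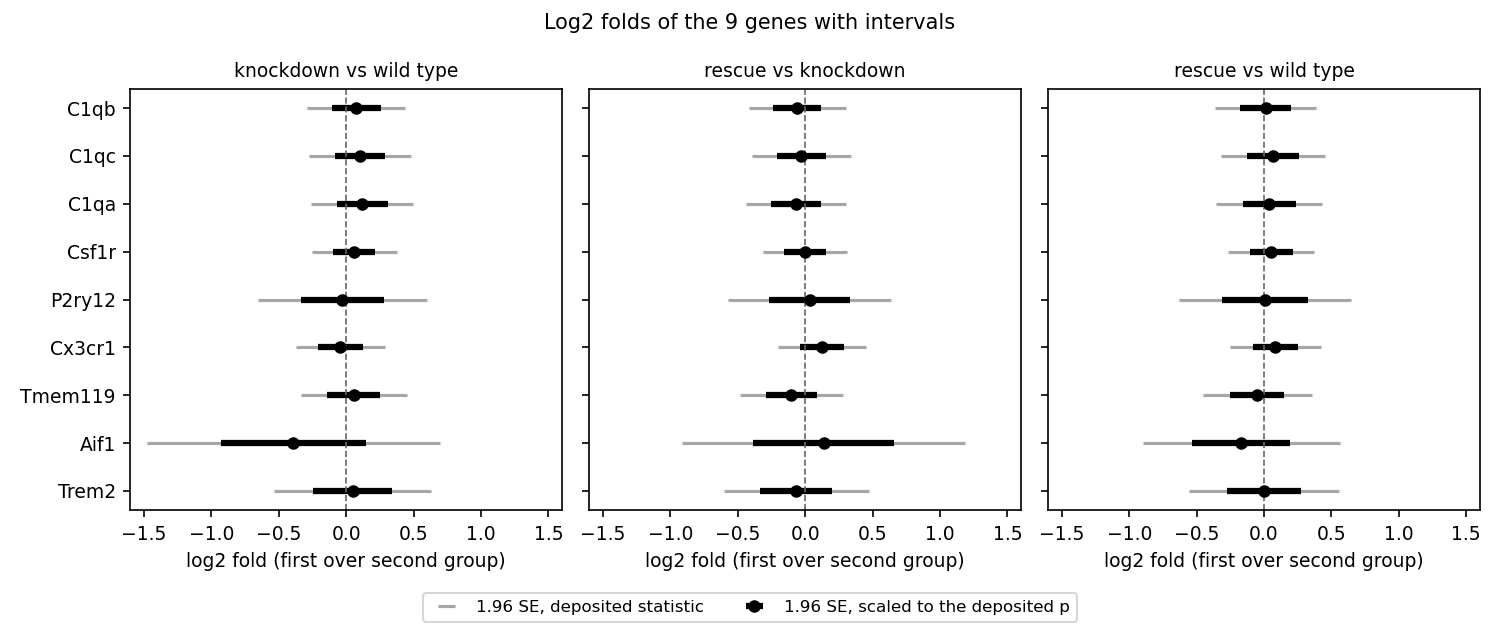
Log2 folds (x axis, first-named over second-named group) of the 9 genes in the 3 comparisons; thin grey bars are 95% intervals from the deposited test statistic and thick black bars the same after scaling to the deposited p. All intervals cross 0, and those of Aif1 and P2ry12 are wide beside those of Csf1r and the C1q chains.

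The size of change that these data leave room for was taken from the authors' test statistic, as 95% intervals whose standard error is the log2 fold divided by the statistic. By this measure the intervals of the 8 genes other than Aif1 lay between 0.636-fold and 1.55-fold in knockdown over wild type, 0.659-fold and 1.55-fold in rescue over knockdown, and 0.647-fold and 1.56-fold in rescue over wild type. For the C1q chains in knockdown over wild type they ran from 0.816-fold to 1.41-fold. The statistic reached only 0.497 times the normal deviate that matches its p, and intervals scaled to that p are narrower by the same factor. For C1qa the scaled interval of the log2 fold in knockdown over wild type ran from -0.07 to 0.31. These tests do not show that the genes were equal in the groups; larger changes than these bounds lie outside the intervals.

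The partners of these receptors were measured in the same tables. Of 16 ligand and partner genes, 15 were tested and 0 were called in any comparison (at an unadjusted p under 0.05 in Cuffdiff 0, 1 and 0 models), with list medians of 0.02, 0.04 and 0.00. Cx3cl1, the neuronal fractalkine that binds Cx3cr1, was abundant at 224 FPKM in the knockdown and 229 FPKM in wild type, and at 232 FPKM in the rescue and 225 FPKM in the knockdown. Of the ligands of Csf1r, Il34 stood at 37.2 FPKM in the knockdown and 39.3 FPKM in wild type and at 41.8 FPKM in the rescue and 37.8 FPKM in the knockdown. Csf1, the other ligand, was lower per length, at 3.87 FPKM in the knockdown and 3.82 FPKM in wild type and at 4.28 FPKM in the rescue and 3.89 FPKM in the knockdown. Tyrobp, the adaptor of Trem2, stood at 29.5 FPKM in the knockdown and 31.8 FPKM in wild type, and at 27.3 FPKM in the rescue and 26.4 FPKM in the knockdown. The knockdown value of Tyrobp thus moved by 0.16 on the log2 scale between tables, more than its fold of -0.11 between knockdown and wild type. None of these differences passed the test.

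Among the wider set of microglial identity genes 1 was called. Of 32 genes 29 were tested, as 31, 31 and 33 models in knockdown over wild type, rescue against knockdown and rescue against wild type, with list medians of 0.05, 0.02 and 0.03. In that order 1, 0 and 0 models rose and none fell, where 1.66%, 0.13% and 0.364% of all tested models rose and 0.858%, 0.559% and 0.478% fell. At an unadjusted p under 0.05 the list had 5, 3 and 1 models. Ctss, the gene of the microglial protease cathepsin S, stood at 34.6 FPKM in the knockdown and 33.0 FPKM in wild type. The gene that rose was Sall1, a zinc finger transcription factor of microglia that other brain cells also express, at 8.04 FPKM in the knockdown and 5.32 FPKM in wild type (a log2 fold of 0.60 with q = 0.00456 in the authors' deposited table). A second, smaller Sall1 model was not called, at 1.16 FPKM in the knockdown and 0.732 FPKM in wild type. For rescue against knockdown the larger Sall1 model stood at 6.53 FPKM in the rescue and 8.05 FPKM in the knockdown, which did not pass (q = 0.172 in the authors' deposited table).

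Among the genes of activated microglia, 2 were called. Of 29 genes 17 were tested, with list medians of 0.06, -0.10 and -0.01. In knockdown over wild type, rescue against knockdown and rescue against wild type 1, 0 and 0 of the 17 models were called higher. In that order 0, 1 and 1 were called lower. Of all tested models 1.66%, 0.13% and 0.364% were called higher and 0.858%, 0.559% and 0.478% lower. At an unadjusted p under 0.05 in Cuffdiff the list had 2, 1 and 2 models. The fold was positive in 11, 3 and 8 models and negative in 6, 14 and 9. Spp1, which encodes the secreted protein osteopontin, rose to 8.17 FPKM in the knockdown, against 4.197 FPKM in wild type (a log2 fold of 0.96 with q = 0.00456 in the authors' deposited table). It fell to 5.21 FPKM in the rescue, against 8.15 FPKM in the knockdown (a log2 fold of -0.65 with q = 0.0118 in the authors' deposited table). These 2 comparisons share the knockdown animals. Lpl, the gene of lipoprotein lipase, was lower in the rescue at 3.05 FPKM, against 3.93 FPKM in wild type (a log2 fold of -0.37 with q = 0.0815 in the authors' deposited table). Striatal markers were lower in the same comparison, with 6 of 7 models called (median -0.61, summed level 71.2 FPKM in the rescue and 99.5 FPKM in wild type). They were lower in knockdown over wild type as well, with 5 of 7 models called (median -0.55). In rescue over knockdown 0 of 6 were called (median -0.18). The part of striatal tissue in the value of Lpl was not tested. With p taken from the deposited statistic, the calls of Sall1, of Lpl and of Spp1 in rescue over knockdown were lost, while that of Spp1 in knockdown over wild type held. The cytokine genes Tnf, at most 0.0394 FPKM in any group, and Il1b, at most 0.261 FPKM, were not tested. Olfactory bulb markers moved in the same directions as Sall1 and Spp1. Of 7 models tested 6 were called higher in the knockdown than in wild type (median log2 fold 1.47, summed level 118 FPKM in the knockdown and 42.2 FPKM in wild type) and 6 of 7 lower in the rescue than in the knockdown (median -0.82, summed level 68.2 FPKM in the rescue and 115 FPKM in the knockdown), and the part of that tissue in the values of Sall1 and Spp1 was not tested.

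**Figure D3:**
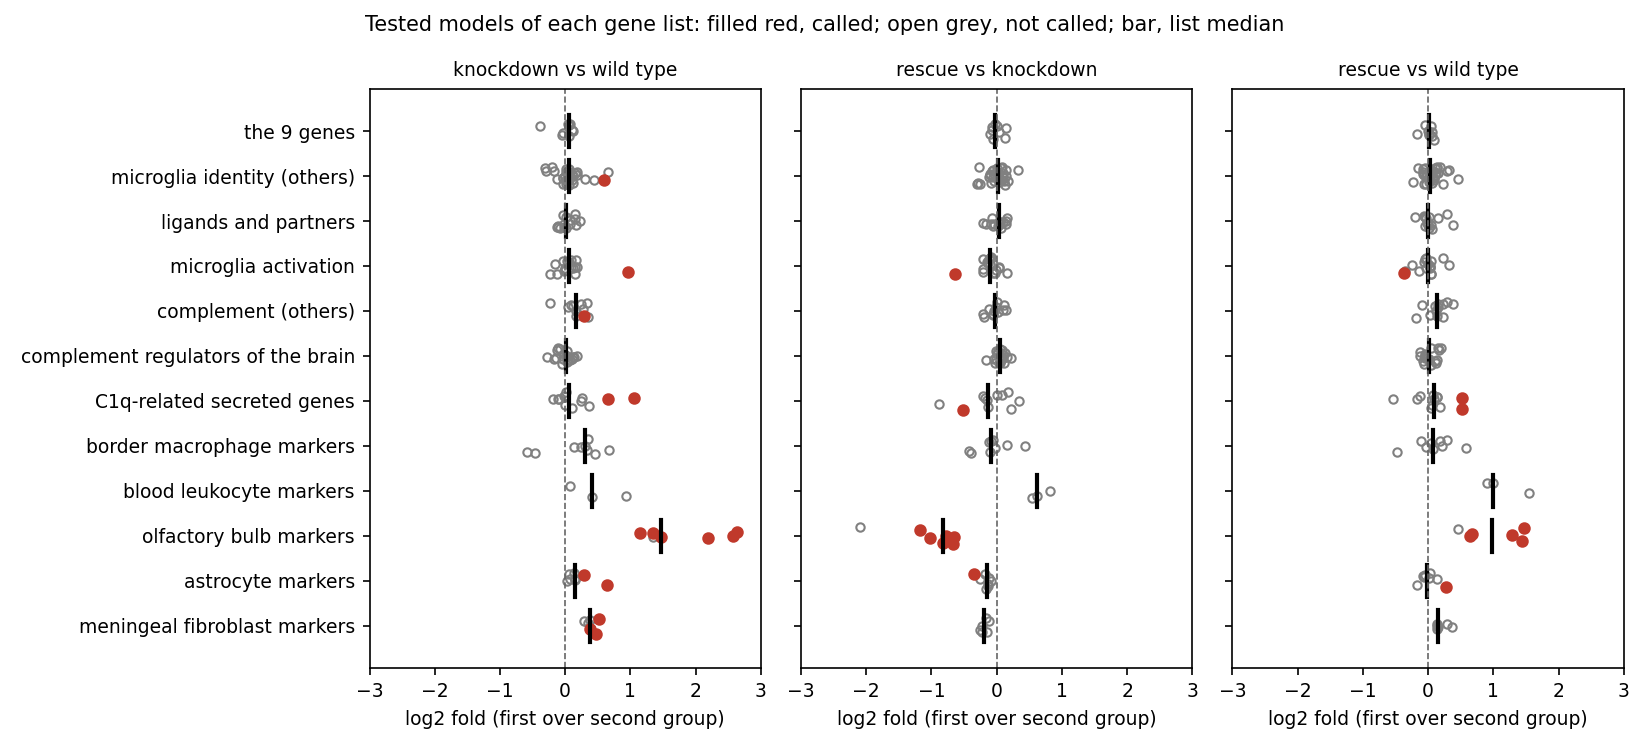
Log2 folds (x axis, first-named over second-named group) of every tested model in the gene lists (rows) for the 3 comparisons; filled red points were called, open grey points were not, and the black bar is the list median. The 9 genes sit near 0 with no called point, while olfactory bulb markers lie far to the right in knockdown over wild type and to the left in rescue over knockdown.

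Beyond C1q, the complement cascade was sparsely expressed. The proteases of the classical pathway were low. C1ra was listed at 0.257 FPKM in the knockdown and 0.264 FPKM in wild type and was not tested. A model shared by C1s and Gm5077 stood at 0.287 FPKM in the rescue and 0.283 FPKM in the knockdown and was not called. C2 stood at 0.801 FPKM in the knockdown and 0.737 FPKM in wild type. C3, the central component, was listed at 0.0377 FPKM in the knockdown and 0.0399 FPKM in wild type and was not tested. The near-identical genes C4a and C4b shared 1 model, at 1.94 FPKM in the knockdown and 1.54 FPKM in wild type (a log2 fold of 0.33 with q = 0.339 in the authors' deposited table), and reads of the pair cannot be told apart. Serping1, the inhibitor of the C1 proteases, had a log2 fold of 0.35 between knockdown and wild type without passing (q = 0.251 in the authors' deposited table). Of 25 such complement genes, 12, 13 and 13 were tested in the 3 comparisons in the order above. A single gene rose, Vtn (vitronectin, a matrix protein that also restrains the terminal pathway), at 29.7 FPKM in the knockdown and 24.4 FPKM in wild type (a log2 fold of 0.29 with q = 0.0392 in the authors' deposited table), and none was called in the other comparisons. List medians were 0.16, -0.03 and 0.14, and 4, 0 and 2 of the 11, 12 and 12 models had an unadjusted p under 0.05. In knockdown over wild type 10 of the 11 models had a positive fold. The call of Vtn was lost with p taken from the deposited statistic. Of 6 meningeal fibroblast markers 3 were also called higher in the knockdown than in wild type (median log2 fold 0.38, summed level 60.3 FPKM in the knockdown and 46.4 FPKM in wild type). Of 7 models of endothelial markers 0 were called in that comparison. All 7 had a positive fold (median 0.22), and 3 had an unadjusted p under 0.05 in Cuffdiff. The part of either cell type in the value of Vtn was not tested.

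Of 18 genes that regulate or receive complement in the brain, such as Csmd1, Sez6 and the pentraxin Nptx2, 17 were tested and 0 models were called in any comparison, at medians of 0.02, 0.06 and 0.01 (at an unadjusted p under 0.05 in Cuffdiff 1, 0 and 1 models). Among secreted proteins with a C1q-like domain, 2 cerebellins were called. Cbln1 (cerebellin 1), which organises synapses, rose to 5.40 FPKM in the knockdown, against 2.59 FPKM in wild type, and fell to 3.80 FPKM in the rescue, against 5.43 FPKM in the knockdown (q = 0.00456 and 0.0118 in the authors' deposited tables). Cbln1 and Cbln4 were both higher in the rescue than in wild type, with log2 folds of 0.52 and 0.51 (q = 0.0563 and 0.0098 in the authors' deposited table). Cbln4 also rose in the knockdown, to 7.86 FPKM against 5.002 FPKM in wild type (q = 0.00456 in the authors' deposited table). Of this list 12, 11 and 12 models were tested, with medians of 0.06, -0.13 and 0.08. In knockdown over wild type, rescue against knockdown and rescue against wild type 2, 0 and 2 models were called higher and 0, 1 and 0 lower. Of all tested models 1.66%, 0.13% and 0.364% were called higher and 0.858%, 0.559% and 0.478% lower. At an unadjusted p under 0.05 in Cuffdiff the list had 2, 3 and 2 models. The olfactory bulb markers moved in the same directions as the cerebellin calls. In rescue over wild type 5 of their 6 models were called higher (summed level 68.3 FPKM in the rescue and 42.5 FPKM in wild type). With p taken from the deposited statistic only the call of Cbln1 in knockdown over wild type held among the cerebellin calls. The part of the bulb in the cerebellin values was not tested, and the difference between the C1q chains and the cerebellins was not tested.

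Macrophages of the brain's borders carry several of the 9 transcripts as well, and their own markers were scarce. All 9 border macrophage markers were listed above 0, 4 of them (Cd163, Lyve1, Ms4a7 and Cd209f) with every single model under 1 FPKM in every group. Their summed level was 10.6 to 10.9 FPKM in the rescue, 11.4 to 11.5 FPKM in the knockdown and 9.34 to 9.38 FPKM in wild type. Mrc1, the mannose receptor, stood at 1.47 FPKM in the knockdown and 1.33 FPKM in wild type. Cd163, the haemoglobin scavenger receptor, had a pair of models, at 0.969 and 0.358 FPKM in the knockdown and 0.707 and 0.540 FPKM in wild type. The platelet factor gene Pf4 stood at 1.84 FPKM in the knockdown and 1.16 FPKM in wild type (p = 0.0419 and q = 0.581 in the authors' deposited table). By Cuffdiff 0 of 9 models were called in each comparison, and 5, 1 and 1 had an unadjusted p under 0.05. Of all tested models 7.91%, 4.19% and 4.32% did so in the same comparisons. List medians were 0.31 in knockdown over wild type, -0.09 in rescue over knockdown and 0.07 in rescue over wild type. In knockdown over wild type 7 of the 9 models had a positive fold and 2 a negative one. The 5 models there included the lower Cd163 model, which fell (a log2 fold of -0.59). The part of these cells in the levels of the 9 genes was not tested.

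Blood leukocyte markers were scarcer still. All 12 were listed, 10 of them under 1 FPKM in every group, and their summed level was 6.14 to 6.17 FPKM in the rescue, 4.00 to 4.01 FPKM in the knockdown and 2.98 to 2.99 FPKM in wild type. The neutrophil gene S100a8 stood at 2.45 FPKM in the rescue and 0.838 FPKM in wild type (q = 0.202 in the authors' deposited table). No marker was called, and the 3 models tested had an unadjusted p under 0.05 in 1, 2 and 3 cases by Cuffdiff in the order above. All 3 had a positive fold in each comparison, with list medians of 0.42, 0.62 and 0.999 in that order. Red blood cell markers were higher in the rescue as well, with 3 of 5 models called in rescue over knockdown (summed level 165 FPKM in the rescue and 115 FPKM in the knockdown) and 3 of 5 in rescue over wild type (163 FPKM in the rescue and 99.7 FPKM in wild type). The part of blood in the levels of the 9 genes was not tested.

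Astrocytes, the other glial cells whose genes respond to injury, had 8 markers tested. All 8 had a positive fold in knockdown over wild type (median log2 fold 0.15) and a negative fold in rescue over knockdown (median -0.15). In rescue over wild type 4 were positive and 4 negative (median -0.01). In knockdown over wild type 2 of the 8 were called higher, beside 1.66% of all tested models. Those were Gfap, at 54.0 FPKM in the knockdown and 34.6 FPKM in wild type, and Aqp4, at 28.8 FPKM in the knockdown and 23.5 FPKM in wild type (q = 0.00456 and 0.0172 in the authors' deposited table). Gfap was also lower in the rescue at 42.4 FPKM, against 54.1 FPKM in the knockdown, and higher in the rescue at 41.9 FPKM, against 34.6 FPKM in wild type (q = 0.0118 and 0.0757 in the authors' deposited tables). The olfactory bulb markers moved in the same directions as Gfap in all 3 comparisons. So did all 6 meningeal markers by the sign of the fold, with medians of 0.38, -0.19 and 0.15 and 3, 0 and 0 models called. The part of these tissues in the Gfap values was not tested.

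The genes whose log2 folds in the 3 comparisons lay nearest to the medians of the 9 genes were 2310035K24Rik, Sema6c, F8a, Sphk2 and Ubb, at Euclidean distances of 0.0047 to 0.0069 on the log2 scale. The search covered 11219 genes with 1 model and at least 1 FPKM throughout, 32.7% of which lay within a distance of 0.1. The measure uses 3 folds made from 3 groups, so a small distance was common.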

How the data were processed

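Polyadenylated RNA of frontal cortex from 12 male mice was sequenced. Cuffdiff 2.2.1.3, Cufflinks 2.2.1.0, TopHat2 2.1.0, TopHat and FastQC 0.65 are listed in the submitters' processing notes, with GRCm38 and mm10 as builds. Per the file headers, the authors' Cuffdiff run gave for each assembled model an FPKM per group, the log2 fold, a p-value, a q-value and a test statistic, which is a score. The deposited log2 folds were not used: folds were recomputed as log2 of the group FPKM values, first-named over second-named group, with no pseudocount. Each table has its own assembly and normalisation, and every test is within 1 table. Depth is unknown, and p-values measure the spread among the 4 libraries of a group as Cuffdiff models it.

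The 9 genes and the gene lists were chosen with earlier results of these data known. Named were the 9 genes, Grin1, a fixed set of ligands, complement and border macrophage genes, the called members of each list (up to 4, for the lists of other cell types only where they bear on a result) and the 5 nearest patterns. C1s, Ctss, P2ry13, Serping1, S100a8, Lst1, Tnf and Il1b were named after their values were seen. C1s1 is in no table under that symbol, and RefSeq protein sequences were not used here. Standard errors are the fold divided by the statistic. The steps were tested on simulated data, with Python 3.11.15, numpy 2.4.6, pandas 2.3.3, scipy 1.17.1 and matplotlib 3.10.9.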

Additional observations from a re-analysis of the deposited data

How the results depend on the processing

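With 1 FPKM value per group, no animal could be left out. No paired analysis was possible because each table holds 1 value per group and the shared replicate numbers could not be used. The count of called genes among the 9 was 0 in each comparison under every alternative run. These were q under 0.05, adjustment only over models averaging at least 1 or 5 FPKM, and p from the deposited statistic. An unadjusted p under 0.05 was added after seeing the data. The lowest Cuffdiff p of the 9 was 0.138, q is never below its p, and the statistic gives a larger p. These runs could therefore not have called any of the 9, and the count of 0 is no check of the result. Their median log2 fold ranged from 0.05 to 0.07 in knockdown over wild type, from -0.04 to -0.02 in rescue over knockdown and from 0.01 to 0.03 in rescue over wild type, over the pseudocounts of 1 and 0.1, both centrings and, chosen after seeing the data, the set without Aif1. The 27 folds of the 9 genes were listed 216 times, over the pseudocounts, the centrings and the planned rules for calling. Only the pseudocounts and the centrings change a fold, and with the pseudocounts the deposited q was kept. None became called, and 4 values changed sign under centring. Csf1r in rescue over knockdown became 0.0026 centred on the median and 0.0030 centred by upper quartiles. Trem2 in rescue over wild type became 0.011 and 0.015 in the same order. Centring moved all folds by less than 0.02. The called models over the 8 surrounding lists numbered 5, 2 and 3 in knockdown over wild type, rescue against knockdown and rescue against wild type. With p from the deposited statistic, which is smaller than the normal deviate of the deposited p, they were 2 (Spp1 and Cbln1), 0 and 0. For rescue against knockdown 1 (Spp1) was called with adjustment over models of at least 5 FPKM, where Cbln1 does not enter. For rescue against wild type 1 (Cbln4) was called under that adjustment and at q under 0.05 also 1 (Cbln4). Unknown depth and the absence of values per animal limit what the folds of the low genes Trem2 and Aif1 can show.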
